A study of Danio rerio with 16 samples.

Results

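The genes described here are 37 of the 22994 genes measured in zebrafish larvae that carried or lacked a functional glucocorticoid receptor (GR) and developed with or without cortisol. They were selected on measured values. The mean normalized count over the 16 libraries had to reach 75, the lowest cortisol-treated library had to lie above the highest vehicle library in larvae with a GR, and the means of those groups had to differ by at least 0.8 on the log2 scale. In addition, the mean of larvae without a GR had to change by less than 0.25 with cortisol, and the vehicle means of both genotype classes had to differ by less than 0.25. Of the 13772 genes with a sufficient mean, 1478 had groups that did not overlap, 222 of these had the rise, 132 were also flat with cortisol in larvae without a GR, and 37 met the last limit as well. The selection reads as a response to cortisol that needs the GR, but in larvae without a GR it used group means alone, and the single libraries did not bear this out. In the group without a GR that received cortisol, 2 libraries had low levels of nearly all of these genes and the other 2 had high levels, so that only their mean was flat.

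RNA was sequenced from pools of 8 whole larvae at 5 days post fertilization, with 4 pools in each of 4 groups. All larvae came from matings of carriers of GR369-, a CRISPR-Cas9 frameshift allele of nr3c1, the gene for the GR, in the AB strain, and were sorted by visual background adaptation (VBA), the dispersal of melanophores on a light background, which the GR mediates. VBA- larvae failed to adapt and were taken as homozygous for GR369-, and VBA+ larvae, wild type and heterozygous together, formed pools that were not of a single genotype. As grounds for this sorting the study gives a share of VBA- larvae near the Mendelian one and genotyping by melt analysis in a pilot. It also reports less nr3c1 RNA in VBA- larvae, by PCR and in these libraries. From a few hours after fertilization the larvae developed either in 1 uM cortisol or in DMSO as vehicle, with a daily change of medium. Each condition had its own dish, whose 4 pools were frozen before the next dish left the incubator. Dish, collection order and condition therefore cannot be told apart, and p-values measure only the spread between pools. In whole larvae fewer cells of a type and less RNA per cell cannot be told apart.

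Cortisol is the main glucocorticoid of fish. It binds the GR, which moves to the nucleus and activates or represses genes through DNA elements or through other transcription factors, and in larvae it is known for effects on metabolism, immunity and the developing nervous system. Several of the 37 genes are known from the nervous system. These include adhesion molecules of neurons and synapses, subunits of channels and receptors, and proteins of axonal transport. Others encode extracellular matrix of the notochord and the ear, the contractile apparatus of fast muscle, and enzymes or transporters of liver and kidney.

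Levels are given as log2(normalized count + 0.1), as deposited, and differences on this scale understate changes of low genes. Quantile normalization had given each library the same sum of 14653434 normalized counts and 310 zeros, so depth is unknown and values of abundant genes come in shared steps. Libraries of the same group correlated at 0.895 to 0.960, and 0 pairs were identical. NR3C1, the mutated gene, was at 9.52, 9.42, 9.20 and 9.18 in VBA+ vehicle replicates 1 to 4, and at 9.0, 8.48, 9.33 and 8.42 in VBA- vehicle replicates. With cortisol it was at 9.49, 9.44, 9.59 and 9.39 in VBA+ and at 9.21, 8.69, 8.46 and 7.83 in VBA- libraries. Replicate 3 of VBA- vehicle and replicate 1 of VBA- cortisol therefore reached the VBA+ vehicle range. FKBP5, a target of the GR, was at VBA+ levels in replicate 1 of both groups labelled VBA- (8.71 in vehicle and 8.95 in cortisol). Groups are named here as labelled, and whether each pool labelled VBA- lacked larvae with a GR could not be settled from these data. All markers of the 10 cell type lists, from neurons to erythrocytes, were above 0 in each group.

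The median of the 37 genes, relative to the VBA+ vehicle mean of each gene, was -0.28, 0.05, 0.12 and 0.15 in VBA+ vehicle replicates 1 to 4. With cortisol it was 1.24, 1.21, 0.76 and 0.48 in VBA+ larvae, so that replicates 1 and 2 were higher than 3 and 4. In VBA- vehicle libraries it was -0.13, -0.34, 0.10 and 0.65. In VBA- cortisol libraries it was -0.71, -0.96, 1.17 and 0.93. Thus replicates 3 and 4 of this last group were within the VBA+ cortisol range, while replicates 1 and 2 lay below every other library. The SD over the 4 libraries had a median of 1.15 over the 37 genes in VBA- cortisol, against 0.24 in VBA+ vehicle, 0.38 in VBA+ cortisol and 0.49 in VBA- vehicle. Over all genes with a sufficient mean the median SD in VBA- cortisol was 0.31.

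**Figure D1:**
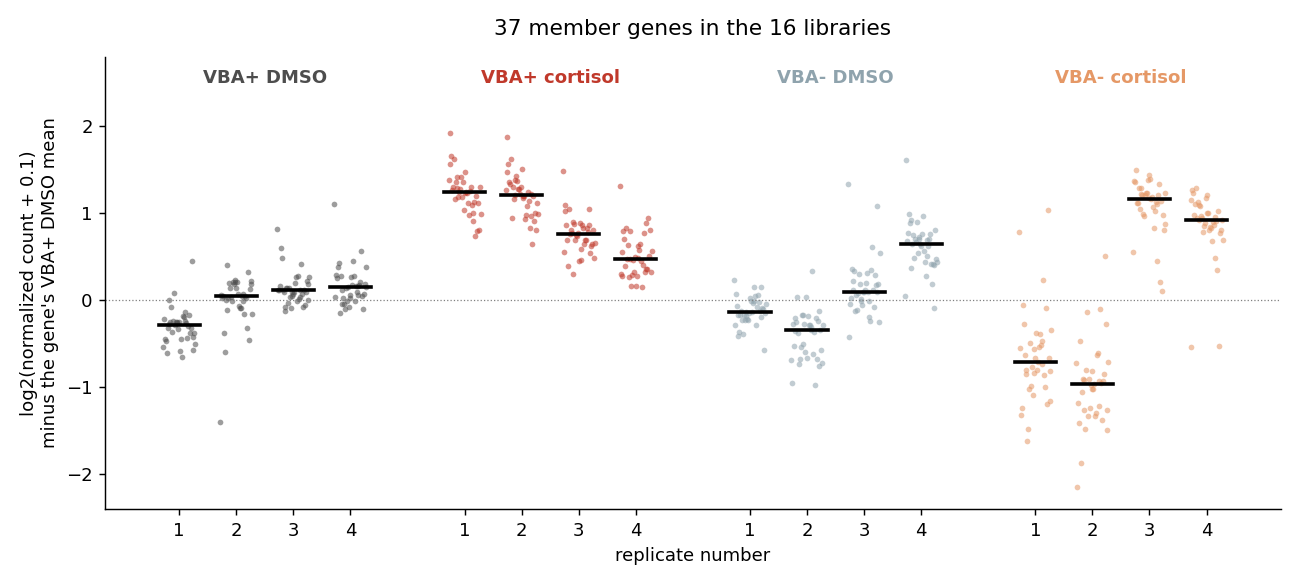
Each point is 1 of the 37 genes in 1 library, as its log2(normalized count + 0.1) minus its mean in VBA+ vehicle, with replicates 1 to 4 of each group along the horizontal axis and black bars at the medians. In VBA- cortisol the medians are -0.71 and -0.96 in replicates 1 and 2 and 1.17 and 0.93 in replicates 3 and 4.

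The same holds gene by gene. In 34 of the 37 genes both VBA- cortisol replicates 3 and 4 were above all VBA+ vehicle libraries, against 27.1% of the 13772 genes with a sufficient mean. In 28 of the 37 replicates 1 and 2 were both below all VBA+ vehicle libraries, against 24.6% of those genes. Replicates 3 and 4 were both above replicates 1 and 2 in 35, all but LIPC and RHCG, where the background was 37.5%. Of the 185 other genes with the same VBA+ rise, 153 shared this order. A change of under 0.25 with cortisol in VBA- larvae both for replicates 1 and 2 and for replicates 3 and 4 was found in 0 of the 37 genes, against 39.2%. The 2 cortisol groups did not overlap, with VBA- lower, in 3 of the 37, AGXT and LIPC among them, against a background of 2.09%. Since the selection fixed the group means and replicate numbers were not matched between vehicle and cortisol, these counts are a description.

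In VBA+ larvae, 35 of the 37 genes passed the limits of the study in limma as higher with cortisol. These limits were an adjusted p of at most 0.05, a log2 fold change of at least 0.5 and an SE under 1. A mean normalized count of at least 75 was needed as well. Of the 21686 genes tested, 780 (3.60%) passed in this direction. Only the 13772 with a sufficient mean could pass, so the shares of all genes that passed in limma understate the background for the 37. The contrast of cortisol in VBA+ chose the 37 genes, so their count is a description. LIPC (1.36 ± 0.46, SE, n = 4 per group, limma adjusted p 0.0684) and SLC4A10 (0.90 ± 0.29, adjusted p 0.0617) did not pass. The count fell to 12 without the trend on mean expression and to 0 with all 16 libraries in the fit or with replicate number as a block. It also rested on single libraries, and 8, 14, 8 or 6 of the 37 genes passed without VBA+ vehicle replicate 1, vehicle replicate 2, cortisol replicate 1 or cortisol replicate 2. In limma, 0 of the 37 passed for cortisol in VBA- (0% of all genes, with 0 of the 37 and 389 of all at an unadjusted p under 0.05). The selection held this change under 0.25, below the 0.5 that a pass needs, so none of the 37 could pass. For VBA- against VBA+ in vehicle 0 passed as well (0.235% of all genes), with 0 of the 37 and 14% of all genes under an unadjusted p of 0.05. Here too the selection held the difference under 0.25, so the counts of both contrasts follow from the selection. For VBA- against VBA+ in cortisol 0 passed (0% of all genes). Before adjustment 3 of the 37 were under 0.05, LIPC and AGXT among them, all lower in VBA-, the direction that the selection fixed. Of all genes 3.07% were under 0.05 in this direction and 7.84% in either. The interaction of genotype and cortisol, whose sign the selection fixed, passed for 0 of the 37 in limma (0.00461% of all genes). Its unadjusted p was under 0.05 for LIPC, stm and AGXT, all with the negative sign. Of all genes 2.53% were under 0.05 with this sign and 5.25% with either.

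The difference between replicates 3 and 4 and replicates 1 and 2 within a VBA- group did not enter the selection. In VBA+ larvae the selection used single libraries, since their groups could not overlap, which limits the spread there. The difference was fitted in limma with a mean for each group and pair. Earlier results of these data had already shown these pairs to stand apart in VBA- cortisol, and no label makes them groups, so the calls and p-values for this split describe its size beside the spread within pairs and are not independent evidence of it. In VBA- cortisol, 34 of the 37 genes were higher in replicates 3 and 4, where 13.8% of all genes were, and 1, RHCG, was lower, where 14.4% were. Of the 13772 genes with a mean that allowed a pass, 3003 were higher and 3129 lower. The median difference of the 37 genes was 1.99, against -0.03 over all genes with a sufficient mean and 1.22 over the 185 other genes with the VBA+ rise. Of the other 2 genes, LIPC (-0.02 ± 0.52, SE, limma adjusted p 0.979) is shown here. In VBA+ cortisol the direction was the opposite. The median difference was -0.62, and 5 genes passed as lower in replicates 3 and 4 (MT-ND5, SLC4A10, APC2, KIF1B and IGSF10), against 1.24% of all genes. In 31 of the 37, replicates 1 and 2 of VBA+ cortisol were both above replicates 3 and 4, against 28.4%. The same order held in 117 of the 185 other genes with the VBA+ rise.

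**Figure D2:**
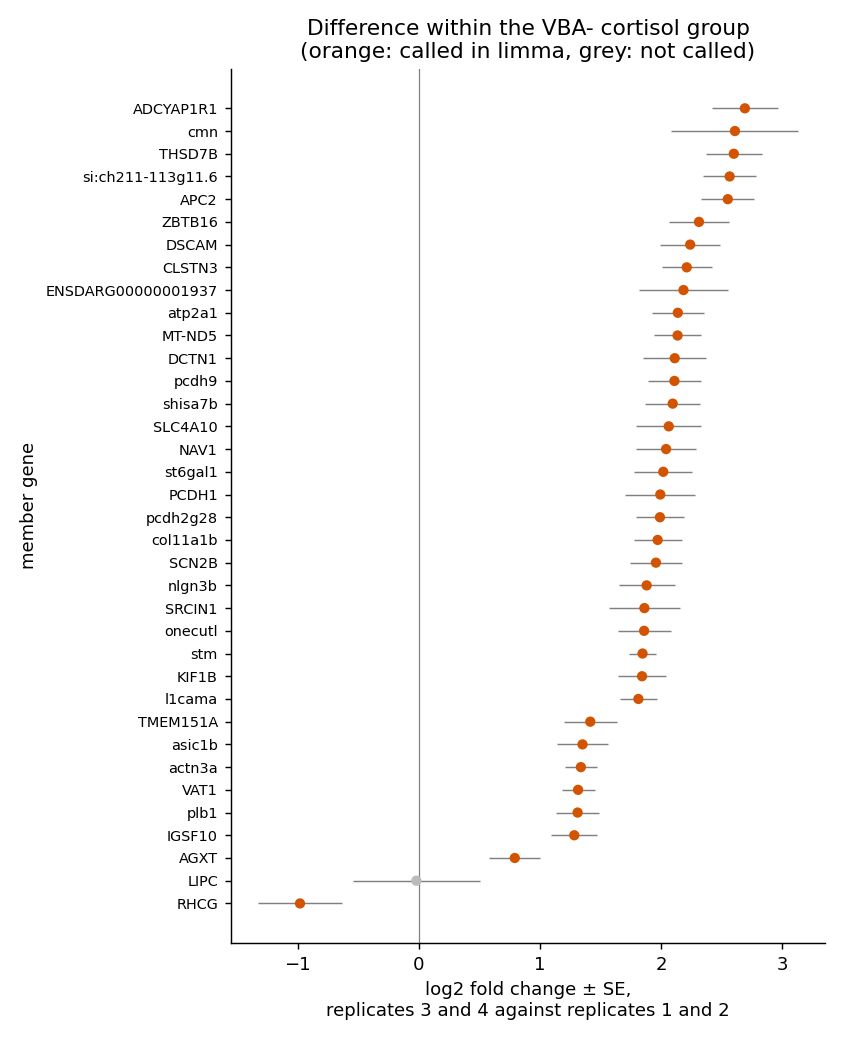
Log2 fold change and SE from limma for replicates 3 and 4 against replicates 1 and 2 within VBA- cortisol, for 36 of the 37 genes. It runs from -0.98 in RHCG to 2.69 in ADCYAP1R1, and of the genes shown LIPC was not called.

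Fewer genes passed in the vehicle groups than in VBA- cortisol. In VBA- vehicle 8 of the 37 genes passed as higher in replicates 3 and 4 (1.98% of all genes), with a median difference of 0.68 over the 37. Replicate 4 was the high library there, above all VBA+ vehicle libraries in 33 genes, against 30.0% of the genes with a sufficient mean. It was also above them in 149 of the 185 other genes with the VBA+ rise. In VBA+ vehicle, plb1 and VAT1 passed as higher in replicates 3 and 4 (1.16% of all genes), and the median difference was 0.19. The counts of the vehicle groups and of VBA+ cortisol were 0 without the trend on mean expression in the fit. Leaving out a library of the group gave 0 to 20 for VBA- vehicle, where the 20 came without replicate 3, 3 came without replicate 1 and 0 came without replicate 2 or 4. It gave 1 without replicate 3 of VBA+ cortisol and 0 without any other library of that group. The 2 calls in VBA+ vehicle were lost without replicate 1, 3 or 4.

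Between the cortisol groups the difference of the pairs itself differed by genotype. It was higher in VBA- than in VBA+ for 33 of the 37 genes in limma, against 15.9% of all genes. LIPC, RHCG and AGXT were among the 4 that did not pass. The corresponding difference between the pairs of the interaction of genotype and cortisol passed for 32 of the 37, against 9.04%. Of the 13772 genes with a mean that allowed a pass, 3447 passed as higher in the former contrast and 1960 in the latter. Both contrasts were chosen after the values had been seen. Replicate numbers were not matched between the cortisol groups, so contrasts of the same numbers across groups depend on how the pools were numbered. In replicates 1 and 2 all 37 genes were lower in VBA- than in VBA+ cortisol libraries, against 48.0% of the genes with a sufficient mean. The median difference of the 37 was -2.12. In replicates 3 and 4, 32 were higher in VBA-, against 47.6% of the genes with a sufficient mean. The median there was 0.45, and LIPC, RHCG, AGXT and atp2a1 were among the 5 exceptions. Of the 185 other genes with the VBA+ rise, 172 were lower in VBA- in replicates 1 and 2. In replicates 3 and 4, 134 of these 185 were higher in VBA-, so most genes with the rise shared both directions. The limits of the selection already placed the VBA- cortisol mean of all 37 genes below their VBA+ cortisol mean.

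**Figure D3:**
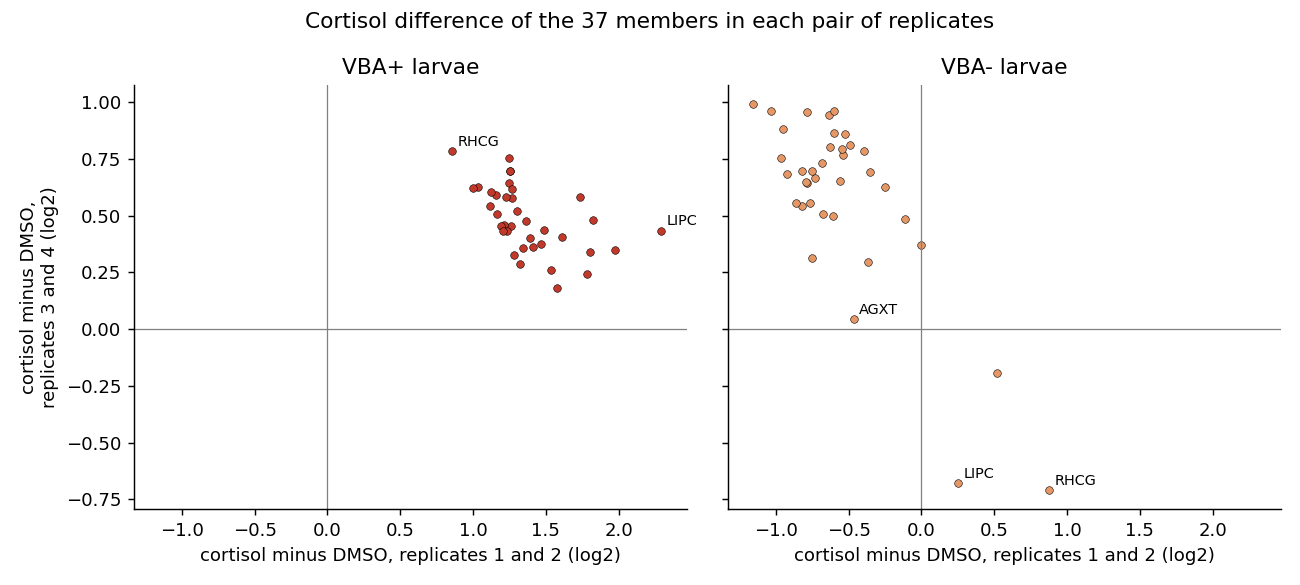
Cortisol minus vehicle for each of the 37 genes (log2), in replicates 1 and 2 on the horizontal axis and in replicates 3 and 4 on the vertical axis, for VBA+ (left) and VBA- (right). Replicate numbers were not matched between cortisol and vehicle libraries. All VBA+ points are positive on both axes, as the selection required (medians 1.27 and 0.46). In VBA-, 34 points combine a negative change in replicates 1 and 2 with a positive one in replicates 3 and 4 (medians over the 37 genes -0.63 and 0.69). A flat VBA- mean requires a large change in one pair to be offset in the other. Of the 13772 genes with a sufficient mean, 6895 were below 0 in replicates 1 and 2 and 6609 above 0 in replicates 3 and 4. These are counts for each pair apart, and how many of these genes combined both was not counted.

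Other measures of the same libraries moved with the 37 genes in some of the groups. The summed level of 15 neuron markers, none of them among the 37, was 10097, 8939, 23073 and 18727 normalized counts in VBA- cortisol replicates 1 to 4. It was 23987, 22522, 20581 and 16421 in VBA+ cortisol, 15790 to 17960 in VBA+ vehicle and 13164 to 15761 in VBA- vehicle. Of these markers 13 of 15 were higher in replicates 3 and 4 of VBA- cortisol in limma, against 13.8% of all genes, and 3 of 15 were higher with cortisol in VBA+, against 3.60%. The median of 176 ribosome and translation genes had the opposite order, with 0.02, 0.03, -0.30 and -0.27 in VBA- cortisol and -0.28, -0.36, -0.14 and -0.12 in VBA+ cortisol, relative to VBA+ vehicle. In the exocrine pancreas 8 of 8 markers were higher with cortisol in VBA+ and 0 of 8 between the pairs. Their summed level was 23995 to 48081 in VBA+ vehicle and 49699 to 68179 in VBA+ cortisol. In VBA- it was 17763 to 47551 in vehicle and 29458 to 52418 in cortisol. The median change of these markers with cortisol in VBA- was 0.65, and 0 of 8 passed. The summed level of 14 lens markers was 92264, 99169, 56500 and 32793 in VBA+ cortisol, where replicates 1 and 2 were the high ones as for the 37 genes, and 46848, 48886, 60840 and 55836 in VBA- cortisol. The part of neuronal RNA and of the other measures in the results for the 37 genes was not tested.

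**Figure D4:**
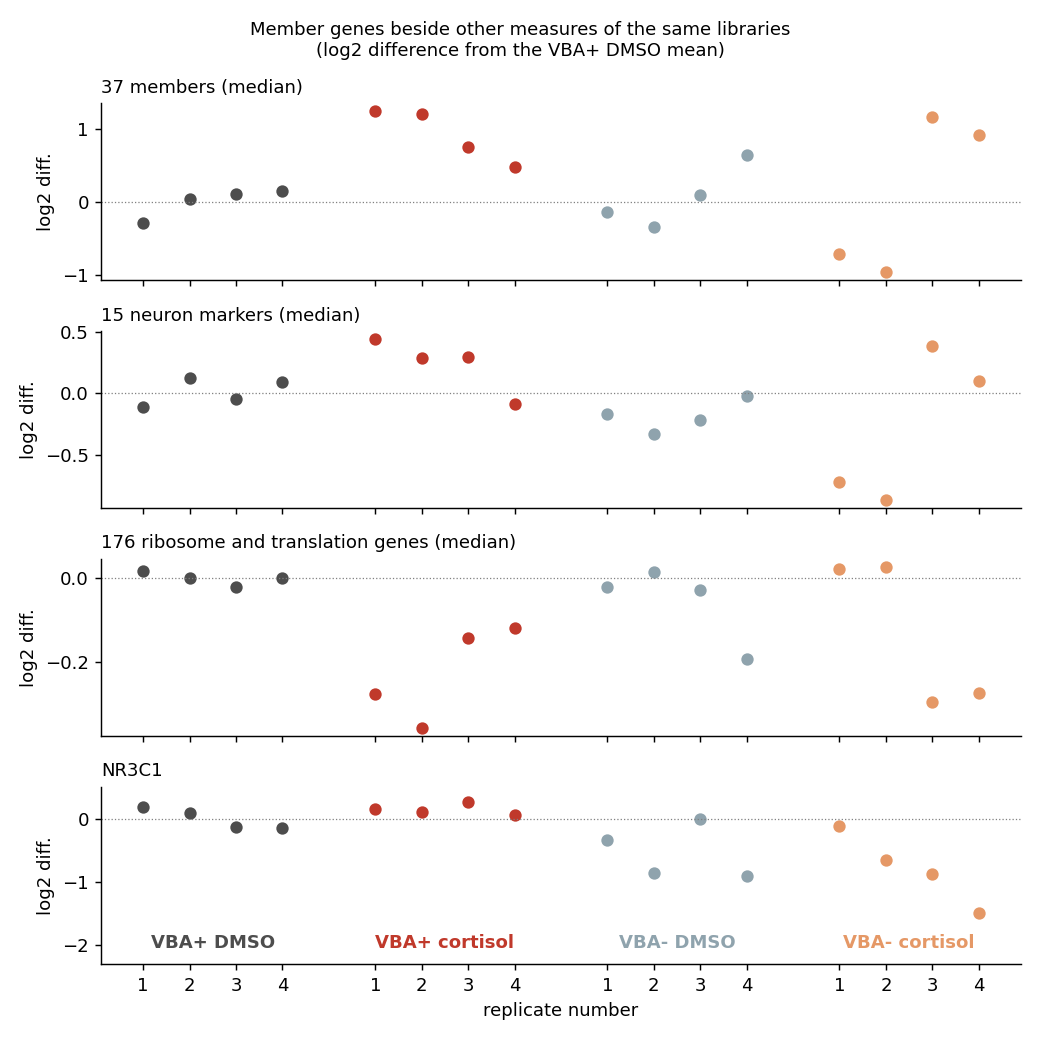
Log2 difference from the VBA+ vehicle mean in each of the 16 libraries for the median of the 37 genes, the median of 15 neuron markers, the median of 176 ribosome and translation genes, and NR3C1. In VBA- cortisol replicates 3 and 4 the 37 genes are high (1.17 and 0.93) and the ribosome genes are low (-0.30 and -0.27). The neuron markers are at 0.38 in replicate 3 and at 0.10 in replicate 4, the latter within their VBA+ vehicle range of -0.11 to 0.12. NR3C1 is at its lowest in replicate 4.

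Among receptors and channels of neurons, ADCYAP1R1 (ENSDARG00000105201), a receptor for the neuropeptide PACAP, was at 7.73, 8.25, 8.36 and 8.45 in VBA+ vehicle and at 9.86, 9.77, 9.29 and 8.48 in VBA+ cortisol. In VBA- it was at 8.13, 7.67, 8.22 and 8.97 in vehicle and at 6.96, 6.78, 9.69 and 9.43 in cortisol. Replicates 3 and 4 of VBA- cortisol thus exceeded all vehicle libraries of either class, and replicates 1 and 2 were under all of them, a difference of 2.69 ± 0.27 (SE, limma adjusted p 1.33e-05), the largest of the 37 genes. SCN2B, an auxiliary beta subunit of voltage-gated sodium channels, was at 6.07 and 6.29 in VBA- cortisol replicates 1 and 2 and at 8.09 and 8.18 in replicates 3 and 4, beside 7.57 to 8.30 in VBA+ cortisol. The acid-sensing sodium channel gene asic1b had 5.76 and 6.15 against 7.41 and 7.20, and the bicarbonate transporter gene SLC4A10 had 5.17 and 4.81 against 7.28 and 6.83. For both, replicates 3 and 4 lay within the VBA+ cortisol range of 6.93 to 7.54 for asic1b and 6.00 to 7.34 for SLC4A10. The gene shisa7b, whose mouse counterpart encodes an auxiliary subunit of neurotransmitter receptors, had 7.27 and 7.20 against 9.41 and 9.25.

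Of the 37 genes, 5 were on a list of cadherin and axon guidance genes and 2 on a list of postsynaptic and synaptic adhesion genes. Such lists were drawn up from gene symbols. CLSTN3, on neither list, calsyntenin-3 of the postsynaptic membrane, was at 9.84, 10.27, 10.01 and 10.24 in VBA+ vehicle and at 11.28, 11.37, 10.85 and 10.56 in VBA+ cortisol. In VBA- cortisol it was at 9.0, 8.85, 11.33 and 10.94, with a difference of the pairs of 2.21 ± 0.21 (SE, limma adjusted p 1.02e-05). Its VBA- vehicle libraries, at 9.88, 9.82, 10.08 and 10.82, lay between these extremes. DSCAM (ENSDARG00000028118), an immunoglobulin-type receptor of neurite self-avoidance, was at 6.81, 6.46, 9.01 and 8.74 in VBA- cortisol, and l1cama, an L1-type molecule of axon growth, was at 8.05, 7.86, 9.89 and 9.64. Both had replicates 1 and 2 below and replicates 3 and 4 above all vehicle libraries of VBA+ larvae. The protocadherin genes PCDH1 (ENSDARG00000062720), pcdh9 and pcdh2g28 had differences of the pairs of 1.99 ± 0.29, 2.11 ± 0.22 and 1.99 ± 0.20 (SE), and that of nlgn3b, a neuroligin that binds presynaptic neurexins, was 1.88 ± 0.23. These 4 genes passed in limma, and replicates 3 and 4 exceeded the VBA+ vehicle libraries in each of them.

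IGSF10 and THSD7B encode large proteins with immunoglobulin and thrombospondin repeats, respectively. THSD7B was at 6.36, 6.46, 6.36 and 6.56 in VBA+ vehicle, the narrow range of a gene with an SD of 0.095, and at 7.73, 7.60, 7.24 and 7.07 in VBA+ cortisol. In VBA- cortisol it was at 4.81, 5.17, 7.65 and 7.53, where the difference of the pairs was 2.60 ± 0.23 (SE, limma adjusted p 9.37e-06). In IGSF10 it was 1.28 ± 0.19 (adjusted p 0.000144), one of the smaller ones, and its VBA- cortisol libraries were at 5.93, 6.29, 7.39 and 7.39. The lower pair of IGSF10 was under the VBA+ vehicle libraries, which ranged from 6.32 to 6.51, and the upper pair was above them.

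Axonal transport and the cytoskeleton were represented by KIF1B, a kinesin that carries synaptic vesicle precursors and mitochondria, DCTN1 (ENSDARG00000056753), the large dynactin subunit of the dynein motor, NAV1 (ENSDARG00000058771), a microtubule-associated protein of neuron navigation, and APC2, a neuronal relative of the adenomatous polyposis coli protein. APC2 was at 8.48, 9.04, 8.99 and 8.87 in VBA+ vehicle, at 10.26, 10.23, 9.62 and 9.12 in VBA+ cortisol and at 7.37, 7.37, 10.06 and 9.77 in VBA- cortisol. It was lower in replicates 3 and 4 than in 1 and 2 of VBA+ cortisol (-0.88 ± 0.22, SE, limma adjusted p 0.0421) and higher in VBA- cortisol (2.55 ± 0.22, adjusted p 7.36e-06). The order of the pairs was thus opposite in these groups, between which replicate numbers were not matched. KIF1B showed the same, with -0.85 ± 0.19 (adjusted p 0.0328) in VBA+ and 1.84 ± 0.19 (adjusted p 1.58e-05) in VBA- cortisol. For both genes the VBA+ call was lost without the trend in the fit. SRCIN1, a regulator of Src kinase, was at 6.39, 5.65, 7.99 and 7.77 in VBA- cortisol, with the VBA+ cortisol libraries at 7.02 to 8.17.

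**Figure D5:**
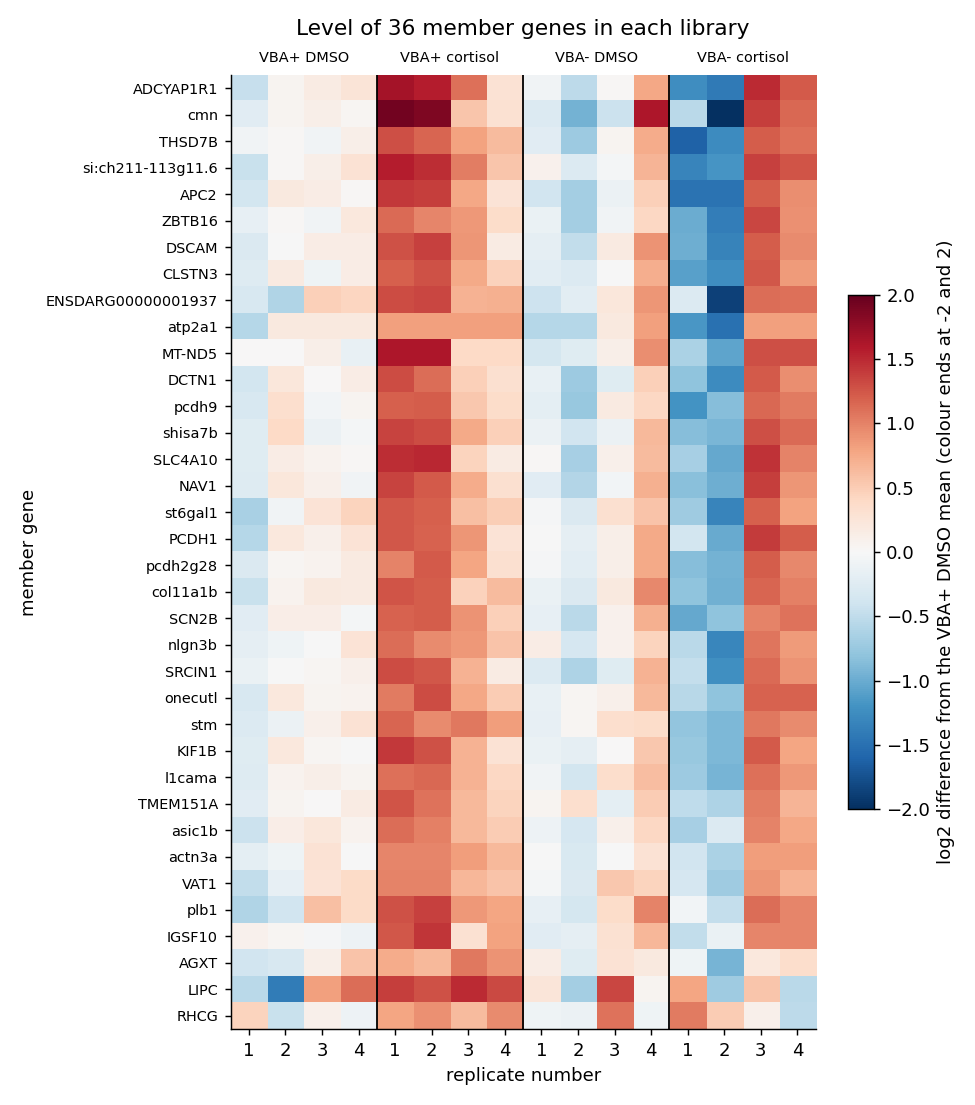
Rows are 36 of the 37 genes, ordered by the difference between replicates 3 and 4 and replicates 1 and 2 in VBA- cortisol, and columns are the 16 libraries. Colour gives the log2 difference from the VBA+ vehicle mean of the gene, from blue (lower) to red (higher), and the lowest 3 rows, AGXT, LIPC and RHCG, lack the change from blue to red within the last block or, in AGXT, show it weakly.

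Among genes of matrix and muscle, cmn, col11a1b, stm, actn3a and atp2a1 also had replicates 3 and 4 above replicates 1 and 2 in VBA- cortisol. The gene cmn encodes calymmin, a protein of the notochord sheath, and it was at 8.97, 9.25, 9.31 and 9.23 in VBA+ vehicle and at 11.11, 11.06, 9.75 and 9.49 in VBA+ cortisol. In VBA- it was at 8.91, 8.24, 8.77 and 10.80 in vehicle and at 8.64, 7.05, 10.57 and 10.34 in cortisol. Replicate 4 of VBA- vehicle was therefore as high as the upper pair with cortisol, and the SD of 1.64 in VBA- cortisol was the widest of the 37. The collagen gene col11a1b was at 10.18, 10.02, 12.15 and 11.99 in VBA- cortisol, and stm, starmaker, which shapes the otolith mineral of the ear, was at 9.95, 9.85, 11.80 and 11.69. The difference of the pairs in stm was 1.85 ± 0.11 (SE, limma adjusted p 1.29e-06), and its VBA+ cortisol libraries, at 11.92, 11.69, 11.80 and 11.58, did not show the order of pairs that most of the 37 had. The alpha-actinin gene actn3a of fast fibres was at 13.48, 13.23, 14.69 and 14.69. The calcium pump gene atp2a1 of the sarcoplasmic reticulum was at 15.54, 15.21, 17.51 and 17.51, where 17.51 is a step shared by all VBA+ cortisol libraries and VBA- vehicle replicate 4, and finer differences at this level were not recorded. The summed level of 9 other skeletal muscle markers ranged from 754964 to 788763 normalized counts in VBA- cortisol and from 690628 to 788148 in VBA- vehicle. It ranged from 801817 to 852294 in VBA+ libraries, and its part in these results was not tested.

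ZBTB16, a zinc finger repressor known as a glucocorticoid-induced gene in human cells, was the member of the list of GR targets and partners. It was at 6.83, 7.02, 6.92 and 7.21 in VBA+ vehicle and at 8.13, 7.97, 7.86 and 7.36 in VBA+ cortisol. In VBA- libraries it was at 6.87, 6.32, 6.92 and 7.41 in vehicle and at 6.00, 5.62, 8.34 and 7.91 in cortisol. Hence VBA- cortisol replicate 3 held the highest level of ZBTB16 of all 16 libraries, with a difference of the pairs of 2.31 ± 0.24 (SE, limma adjusted p 1.58e-05). The other transcription factor, onecutl, of the Onecut family, was at 5.84, 5.59, 7.57 and 7.57 in VBA- cortisol, beside 6.90 to 7.70 in VBA+ cortisol.

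MT-ND5, a subunit of respiratory complex I encoded in the mitochondrial genome, was at 13.93, 13.93, 14.04 and 13.78 in VBA+ vehicle and at 15.54, 15.54, 14.32 and 14.32 in VBA+ cortisol. In VBA- cortisol it was at 13.29, 12.87, 15.21 and 15.21. The difference of the pairs was -1.23 ± 0.19 (SE, limma adjusted p 0.0111) in VBA+ and 2.13 ± 0.19 (adjusted p 9.73e-06) in VBA- cortisol. Replicate numbers were not matched between these groups, and the VBA+ call was lost without the trend in the fit. The median of the 13 protein genes of the mitochondrial genome moved less, with 0.19, 0.15, -0.07 and -0.03 in VBA+ cortisol and -0.50, -0.64, -0.05 and -0.11 in VBA- cortisol relative to VBA+ vehicle. The enzyme genes plb1 of phospholipid breakdown and st6gal1 of sialic acid transfer had differences of the pairs in VBA- cortisol of 1.31 ± 0.18 and 2.02 ± 0.24 (SE), and VAT1, which encodes a vesicle membrane protein, had 1.31 ± 0.14. In plb1 the pairs also differed in both vehicle groups, by 0.98 ± 0.18 (adjusted p 0.013) in VBA+ and 0.94 ± 0.18 (adjusted p 0.0152) in VBA-. Little can be said of the function of si:ch211-113g11.6, ENSDARG00000001937 and TMEM151A, but si:ch211-113g11.6, at 7.97, 8.11, 10.65 and 10.56 in VBA- cortisol, had one of the 5 largest differences of the pairs, 2.56 ± 0.22 (adjusted p 7.39e-06).

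LIPC and RHCG were outside this pattern, and AGXT followed it weakly. LIPC, hepatic lipase, was at 5.40, 4.53, 6.76 and 7.05 in VBA+ vehicle and at 7.31, 7.20, 7.42 and 7.25 in VBA+ cortisol, so that vehicle replicates 1 and 2 were the low ones. Its rise of 1.36 was the largest of the 37, and the cortisol difference was 2.29 in replicates 1 and 2 and 0.43 in replicates 3 and 4. In VBA- LIPC was at 6.17, 5.25, 7.27 and 5.98 in vehicle and at 6.72, 5.21, 6.49 and 5.40 in cortisol, with overlap of these groups. AGXT (ENSDARG00000018478), an aminotransferase of glyoxylate metabolism in the liver, was at 11.91, 11.82, 12.23 and 12.07 in VBA+ cortisol and at 11.09, 10.25, 11.39 and 11.53 in VBA- cortisol. Its VBA- vehicle libraries, at 11.33, 10.94, 11.47 and 11.37, lay within the latter range, and its VBA+ vehicle libraries were at 10.80, 10.86, 11.30 and 11.75. The summed level of 10 liver markers was 61853, 73809, 100736 and 101623 normalized counts in VBA+ vehicle replicates 1 to 4 and 102758 to 110790 in VBA+ cortisol. It moved with LIPC and AGXT in the VBA+ libraries. In VBA- it was 111388 to 142042 in vehicle and 76369 to 136619 in cortisol. Its VBA- vehicle sums were thus above those of VBA+ cortisol, while the means of LIPC and AGXT were lower there than in VBA+ cortisol. The part of the liver markers in the rise of these genes was not tested.

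RHCG (ENSDARG00000100265), an ammonia channel of the Rh family, was at 7.64, 6.74, 7.30 and 7.10 in VBA+ vehicle and at 7.99, 8.11, 7.82 and 8.14 in VBA+ cortisol. In VBA- cortisol it was at 8.23, 7.71, 7.30 and 6.67, with the order of the pairs reversed against the other genes (-0.98 ± 0.35, SE, limma adjusted p 0.0347). Replicates 1 and 2 of VBA- cortisol thus had RHCG levels near those of VBA+ cortisol, while the upper pair of the other genes was the lower one here.

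Zebrafish often keep a pair of copies of a gene, and 7 of the 37 symbols were shared with other gene IDs, among which reads may have been split. The copies that were not selected had smaller differences of the pairs in VBA- cortisol. For ADCYAP1R1 the other copy (ENSDARG00000053724) had a cortisol difference of 0.08 in VBA+ and a difference of the pairs of 0.50 in VBA- cortisol. For DSCAM (ENSDARG00000024865) these were 0.49 and 1.45, for NAV1 (ENSDARG00000078011) 0.30 and 0.38, and for PCDH1 (ENSDARG00000036175) 0.57 and 0.57. The other copy of DCTN1 (ENSDARG00000019743) had 0.50 and 0.41, and that of AGXT (ENSDARG00000052099) had 0.34 and -0.16. RHCG was an exception, since both other copies were lower in replicates 3 and 4 of VBA- cortisol, with differences of -0.91 (ENSDARG00000003203) and -3.45 (ENSDARG00000007080), while their cortisol differences in VBA+ were 1.24 and -0.39. These copies are given as values without a test, because the selected copies were chosen for a high VBA+ rise.

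Over the 16 libraries, the genes most like the median of the 37 were l1cama, ADCYAP1R1, pcdh2g28, CLSTN3 and DSCAM, with Pearson correlations of 0.992, 0.991, 0.989, 0.988 and 0.986. The median includes the gene itself and the libraries share their normalization, so these values are a description. LIPC (0.44) and RHCG (-0.01) were least like it.

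The wider lists to which these genes belong are set beside all genes tested, of which 3.60% were higher and 4.63% lower with cortisol in VBA+, and 13.8% were higher and 14.4% lower in replicates 3 and 4 of VBA- cortisol. Differences between a list and the other genes were not tested. Of 230 cadherin and axon guidance genes, which include l1cama, DSCAM, PCDH1, pcdh9 and pcdh2g28, 57 (24.8%) passed as higher and 0 as lower with cortisol in VBA+, with a median of 0.47 against -0.01 over all genes tested. Within VBA- cortisol 123 (53.5%) of them were higher and 6 lower in replicates 3 and 4, with a median of 1.03 against -0.04. For 147 postsynaptic and synaptic adhesion genes, with nlgn3b and IGSF10, these counts were 14 and 1 with cortisol in VBA+, and 63 and 6 between the pairs. IGSF10 was listed by its symbol, which does not show a role at synapses. Of 196 voltage-gated channel genes, with SCN2B, 9 were higher (4.59%, near the share of all genes) and 0 lower in VBA+, and 47 were higher and 6 lower between the pairs. The 191 motor and cytoskeleton genes, with KIF1B and NAV1, had 22 higher and 4 lower in VBA+, and 93 higher and 8 lower between the pairs. Among 113 sarcomere genes, with actn3a and atp2a1, 12 (10.6%) were higher and 7 (6.19%) lower in VBA+, and 48 (42.5%) higher and 9 lower between the pairs. Among 128 collagen and basement membrane genes, with col11a1b, 22 were higher and 0 lower in VBA+, and 53 higher and 8 lower between the pairs.

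The list of GR targets and partners held genes of both directions. Of its 46 genes 13 (28.3%) were higher and 3 (6.52%) lower with cortisol in VBA+, while within VBA- cortisol 9 (19.6%) were higher and 11 (23.9%) lower in replicates 3 and 4, with a median of -0.07 against -0.04 over all genes tested. In VBA- larvae 0 genes of any of these lists passed for cortisol in this limma fit, as 0 genes did in the whole table. With DESeq2 the study reports a small set of genes raised by cortisol in VBA- larvae, immediate early genes such as npas4a among them. Of 35 immediate early genes 0 passed here, with a median change of 0.40 in VBA-, against -0.01 over all genes tested. FKBP5, a classical GR target that encodes a cochaperone of the receptor, was at 8.42 to 8.99 in VBA+ vehicle and at 8.61 to 9.47 in VBA+ cortisol. It was at 8.71, 6.00, 5.98 and 5.25 in VBA- vehicle and at 8.95, 6.94, 6.66 and 3.34 in VBA- cortisol, where all but replicate 1 were below all VBA+ libraries in both groups. KLF9, another GR target and a transcriptional repressor, was at 7.85 to 8.35 in VBA+ vehicle and at 8.76 to 9.74 in VBA+ cortisol. KLF9 was at 7.92, 7.56, 7.18 and 7.60 in VBA- vehicle and at 9.54, 8.49, 8.16 and 7.44 in VBA- cortisol. In the latter, replicate 1 was within the VBA+ cortisol range, and all but replicate 4 were above all VBA- vehicle libraries. Replicates 3 and 4 of VBA- cortisol, in which 34 of the 37 genes were above all VBA+ vehicle libraries, thus held the lowest FKBP5, KLF9 and NR3C1 levels of their group.

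The genes nearest to each limit of the selection are given here, inside and outside it. SLC4A10 had a mean normalized count of 79.2 and sorcs3b, just outside, one of 70.5. The gap between the lowest VBA+ cortisol and the highest VBA+ vehicle library was 0.0095 in PCDH1 and 0 in TTN. The VBA+ rise was 0.804 in VAT1 and 0.798 in PANK1. The change of the VBA- mean with cortisol was -0.22 in atp2a1, with an absolute value of 0.26 in G6PC1 outside, and the vehicle difference was 0.24 in LIPC against 0.26 in map1lc3cl. Among the 185 other genes with the VBA+ rise, 158 had VBA- cortisol replicates 3 and 4 above all VBA+ vehicle libraries, and 25 had replicates 1 and 2 below all of them, which compares with 34 and 28 of the 37. The selected genes therefore shared the upper pair with the other genes of the VBA+ rise, and the lower pair was more frequent among them, as their flat means required.

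Membership itself depended on which libraries were used. Applied to replicates 1 and 2 alone, the same limits selected 200 genes, of which 1 was among the 37, and applied to replicates 3 and 4 alone they selected 4 genes, with 0 shared. Without VBA- cortisol replicate 1, 2, 3 or 4 they selected 19, 8, 25 or 32 genes, of which 16, 6, 13 and 19 were shared. Without replicate 1 of both VBA- groups, a setting added after the data were seen, they selected 17, of which 14 were shared. Without VBA+ cortisol replicate 4, which held the lowest level of its group in 29 of the 37 genes, they selected 180 genes, 36 of them shared. With fewer VBA+ libraries the limit on overlap is easier to meet, so these numbers are not directly comparable with 37.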

How the data were processed

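RNA was poly(A)-selected from 16 pools of whole larvae, and the study's methods give paired-end reads for these libraries, while the sample protocol, which covers both experiments, names single-end sequencing. Per the submitters' processing notes, the authors used Trimmomatic, STAR 2.6.1b, RSEM 1.3.0 and R 3.6.1 with the GRCz11 build, and EDASeq normalized the estimates for GC content and by full quantiles. The deposited values are log2 of the normalized count plus 0.1, in whole numbers within 1.8e-09 before the log. The authors applied DESeq2 to counts. The normalized values were instead fitted with limma 3.58.1 under R 4.3.3 (eBayes with trend, Benjamini-Hochberg over the 21686 genes whose mean normalized count reached 5). A test on simulated data came first. Its values were independent, had less spread than the measured ones and lacked a split shared by most genes. It therefore does not show how the fits perform on these libraries. Pairwise comparisons used 8 libraries, and the interaction and the contrasts of replicate pairs used 16. No batch is stated for these libraries, and groups follow the labels. The study describes separate preparation of these replicate numbers only in its other experiment. The pairs were examined for that reason and because earlier results of these data had shown them to differ. In that other experiment the study also relates the split to collection order, with more synaptic signaling and less translation in replicates 3 and 4. Whether the same held for these libraries was not tested. For these libraries the study reports VBA- cortisol replicates spread widely along its main axis of variance. The 37 genes and the 19 gene lists and 10 marker lists were chosen with earlier results of these data known.

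Genes were named if they had one of the 10 largest VBA+ rises, one of the 5 largest or 5 smallest absolute differences of the pairs in VBA- cortisol, one of the 3 largest rises in a list, a place next to a limit, or one of the 5 highest correlations with the median. Other members, and other copies of a symbol, were named after their values were seen, and NR3C1, FKBP5 and KLF9 were added. A supplied symbol table held 36 of the 37 genes and often prints the human form. Same-numbered libraries deviated together across genes in VBA+ and VBA- vehicle (correlations 0.253, 0.212, 0.309 and 0.235), where the numbers were taken as possible pairs. The main fits used no pairs, and a replicate block entered only as an alternative. In VBA- vehicle and cortisol the correlations were 0.288, 0.657, 0.0782 and 0.67, all positive but with 1 under the limit of 0.1, and for cortisol in VBA+ and between the cortisol groups all were negative, so that the numbers were not taken as pairs there. Alternatives were another pseudocount, no filter, no trend, other samples in the fit, a replicate block and the omission of each library. Figures were drawn with matplotlib in Python. Of the 37 genes, 1 that the rule names is not reported here by name and is counted in the totals. A planned search of promoters for motifs was not run, and no sequences are printed.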

Additional observations from a re-analysis of the deposited data

Results flagged for a closer look

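In l1cama, VBA+ vehicle replicate 1 had a level of 8.52, far below the other 3 replicates at 8.84 to 8.90. In atp2a1, VBA+ vehicle replicate 1 was at 16.13 and the others shared the step at 16.89. In RHCG, VBA- vehicle replicate 3 was at 8.29, far above the others at 7.08 to 7.11. These are 3 of 148 sets of 4 libraries examined, in which chance flags about 1 in 20, and the sets are not independent.

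The difference between replicates 3 and 4 and replicates 1 and 2 was higher in VBA- cortisol than in VBA+ cortisol for 33 of the 37 genes in limma, a contrast chosen after the values had been seen. In MT-ND5 it was 3.36 ± 0.27 (SE, adjusted p 8.01e-06) and in ADCYAP1R1 3.61 ± 0.39 (adjusted p 1.96e-05).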

How the results depend on the processing

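The count of genes higher in replicates 3 and 4 or lower there in VBA- cortisol, 35 of 37, was 34 or 35 without any one library of that group and stayed within that range under the other alternatives. For cortisol in VBA+, the count of 35 became 12 without the trend, 0 with all 16 libraries and 0 with a replicate block, and ran from 6 to 36 without single libraries. The other pairwise comparisons and the interaction gave 0 in all settings, and the replicate block changed no call there. For cortisol in VBA- and for the vehicle comparison the selection held differences under 0.25, below the 0.5 that a pass needs. None of the 37 could therefore pass in these 2 comparisons while all libraries were kept, with or without the block. Between the pairs of replicates, the counts of 5 in VBA+ cortisol, 8 in VBA- vehicle and 2 in VBA+ vehicle became 0, 0 and 0 without the trend. They ran from 0 to 1, 0 to 20 and 0 to 2 without single libraries. For LIPC the difference of the pairs in VBA- cortisol, -0.02, turned to 0.73 without replicate 1 and 0.53 without replicate 4, and was -0.77 without replicate 2. With only replicates 3 and 4, the median cortisol difference in VBA+ was 0.46 and the median genotype difference in cortisol was 0.45, while the latter was -2.12 with only replicates 1 and 2. Replicate numbers were not matched between these groups.

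The number of selected genes, 37, was 56 with a minimum mean of 20, 80 with a rise of 0.7, 8 with a rise of 1, 15 with a limit of 0.15 and 63 with a limit of 0.35 for the flat contrasts. It was 8 to 180 without single libraries, 17 without replicate 1 of both VBA- groups, 200 with only replicates 1 and 2 and 4 with only replicates 3 and 4. The last 3 were chosen after seeing the data. With fewer VBA+ libraries the limit on overlap is easier to meet, which affects these numbers. The causes were not tested. Depth is unknown, so no counting error could be given, and steps shared by abundant genes limit atp2a1 and MT-ND5.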
